A study of Mus musculus with 8 samples.

Results

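The 10 immediate early genes Fos, Fosb, Jun, Junb, Egr1, Ier2, Atf3, Nr4a1, Dusp1 and Zfp36 were examined in the distal colon of mice at baseline. They were taken from the expression table by gene symbol and are 10 of the 52143 genes in it. A symbol with several rows was represented by its most abundant row. All 10 passed the filter on low values, at least 1 TPM in 4 or more samples, as did 13164 genes in all. TPM is the abundance of a transcript for its length, scaled to the same total in every sample.

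RNA-Seq was available for 4 Control samples from Villin1-Cre-ERT mice and 4 SiglecXII samples from SIGLEC12-Villin1-Cre-ERT mice. In both groups the Villin1 promoter drives a tamoxifen-dependent Cre recombinase in the intestinal epithelium. The SiglecXII mice also carried human SIGLEC12 at the ROSA26 locus behind a CAG promoter and a floxed EGFP cassette with a stop codon, which Cre removes. At 8 weeks of age, mice of both groups were given 5 daily injections of tamoxifen (100 µL at 10 mg/mL). The colon was taken 7 days after the last of them, on day 12 counted from the first. The samples were whole tissue, so Cre-positive epithelium and other layers were measured together. Each sample was treated as 1 mouse, although the design text speaks of 3 mice per condition and the study's methods of 3 technical libraries per sample. If samples shared an animal, the P values below measure a technical spread in part.

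Immediate early genes are switched on within minutes of a growth factor, cytokine or stress signal without the need for new protein synthesis. Extracellular signal-regulated kinase (ERK), the other mitogen-activated protein kinases and protein kinase A act on factors such as SRF and CREB that already sit at the promoters of these genes. The transcripts are short and decay fast, in many cases through AU-rich elements in the 3′ untranslated region. The same genes are well known to respond to the dissection and dissociation of tissue, so their level in a tissue sample reads both the state of the cells and the handling of the sample.

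The members are compact genes. In the GENCODE M21 annotation of GRCm38, the coding transcript of a member had a median of 3 exons, against 9 exons for the 11753 protein-coding genes tested, and the median member spanned 3427 bases of the genome against 21179 bases. Ier2, Jun and Junb had 1 exon each. The core pentamer of AU-rich elements, ATTTA, occurred in the 3′ untranslated region of 9 of the 10 members (90%), against 67.3% of all coding genes tested, with Ier2 as the exception. The longer element TTATTTATT, which is bound by the protein product of Zfp36 itself, was found in 3 members (30%), namely Fos, Dusp1 and Zfp36, against 7.32% of all. These 3 elements are shown in windows of 30 bases, read from GENCODE M21 transcripts 5′ to 3′. They mark the members whose mRNA carries the site of a product of the group. The capitals mark the element.

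Fos AU-rich element: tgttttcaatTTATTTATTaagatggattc
Dusp1 AU-rich element: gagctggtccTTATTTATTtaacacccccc
Zfp36 AU-rich element: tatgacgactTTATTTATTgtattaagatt

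The Dusp1 transcript held 2 such elements and the first is shown. Both other transcripts held 1.

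Promoter sequences from 250 bases before to 50 bases after the transcription start were matched for 8 of the 10 members in RefSeq (GRCm38.p6), and those for Egr1 and Ier2 were not used here. TGACG, the core of the cAMP response element to which CREB and ATF proteins bind, was searched on both strands and occurred in 6 of the 8 promoters (Atf3, Dusp1, Fos, Fosb, Junb and Nr4a1). Of all 32851 promoters of this length, 20.8% held it. The full palindrome TGACGTCA, which contains TGACG on each strand, occurred in Dusp1 alone of the 8 and in 1.79% of all promoters. The site bound by EGR1 (GCGTGGGCG or GCGGGGGCG, both strands) was present in 3 of the 8, Fosb, Nr4a1 and Zfp36, and in 3.47% of all. A CArG box, the site of SRF, was found in the Zfp36 promoter and in 1.63% of all. TGACTCA, the site of AP-1, was in none of the 8 windows and in 5.2% of all. A match or its absence describes the letters of this window only, and sites farther upstream were not searched. A match does not show that a factor was bound in these samples.

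The promoters of 5 members are shown because they carry these motifs and belong to genes whose values are described below. Each is printed 5′ to 3′ on the strand of its gene, with the motifs above in capitals. Fos lies on the plus strand (chr12:85473640-85473939), with TGACG first at positions -129 and -66 from the start. Nr4a1 is on the plus strand as well (chr15:101266596-101266895), with TGACG in reverse (CGTCA) 4 times and the EGR1 site once in reverse. Junb is on the minus strand (chr8:84978699-84978998), with 1 TGACG. Dusp1 is on the minus strand (chr17:26508423-26508722), with TGACG and the palindrome. Zfp36 is on the minus strand (chr7:28379179-28379478), with the EGR1 site followed by the CArG box.

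Fos promoter: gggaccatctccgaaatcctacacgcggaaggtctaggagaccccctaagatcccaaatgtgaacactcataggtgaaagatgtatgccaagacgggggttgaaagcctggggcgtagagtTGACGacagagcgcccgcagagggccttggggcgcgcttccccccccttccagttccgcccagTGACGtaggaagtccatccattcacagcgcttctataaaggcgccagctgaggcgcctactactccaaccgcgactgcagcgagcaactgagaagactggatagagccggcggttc
Nr4a1 promoter: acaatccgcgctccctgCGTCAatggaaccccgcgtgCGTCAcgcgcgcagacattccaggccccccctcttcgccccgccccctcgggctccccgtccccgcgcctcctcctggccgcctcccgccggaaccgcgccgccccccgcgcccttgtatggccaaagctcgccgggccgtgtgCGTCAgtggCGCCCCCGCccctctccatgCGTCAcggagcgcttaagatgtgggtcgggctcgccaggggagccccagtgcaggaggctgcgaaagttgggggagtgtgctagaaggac
Junb promoter: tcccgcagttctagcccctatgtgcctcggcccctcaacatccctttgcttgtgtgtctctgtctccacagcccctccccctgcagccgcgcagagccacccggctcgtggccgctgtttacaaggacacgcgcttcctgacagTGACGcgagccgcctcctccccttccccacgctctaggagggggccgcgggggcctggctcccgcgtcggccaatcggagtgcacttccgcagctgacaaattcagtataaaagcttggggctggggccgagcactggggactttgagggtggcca
Dusp1 promoter: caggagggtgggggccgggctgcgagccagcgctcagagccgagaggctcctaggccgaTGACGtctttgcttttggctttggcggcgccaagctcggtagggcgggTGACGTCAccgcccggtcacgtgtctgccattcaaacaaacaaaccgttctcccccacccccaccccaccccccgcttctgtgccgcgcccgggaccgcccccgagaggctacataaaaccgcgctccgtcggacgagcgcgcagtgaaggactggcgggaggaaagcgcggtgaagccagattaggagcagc
Zfp36 promoter: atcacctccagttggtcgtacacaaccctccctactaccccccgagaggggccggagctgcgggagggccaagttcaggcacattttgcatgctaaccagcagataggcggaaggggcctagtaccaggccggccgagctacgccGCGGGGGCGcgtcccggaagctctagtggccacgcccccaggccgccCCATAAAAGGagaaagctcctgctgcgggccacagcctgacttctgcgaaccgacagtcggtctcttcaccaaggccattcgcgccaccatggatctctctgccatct

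The members covered a wide range of levels. On the TPM scale, which is per transcript length and can be compared between genes, the mean over the 8 samples was 139 TPM for Junb, 100.1 TPM for Ier2 and 86.6 TPM for Fos, with Fos at the 88.4 percentile of the genes tested. Zfp36 (36.4 TPM), Jun (30.5 TPM), Atf3 (21.2 TPM) and Dusp1 (12.5 TPM) followed. Egr1 (5.95 TPM), Nr4a1 (2.5 TPM) and Fosb (2.04 TPM) were low, with Fosb at the 11.1 percentile. Neighbors in this order were compared within samples on the log2(TPM + 1) scale. Junb exceeded Ier2 by 0.46 ± 0.31 (SD, n = 8) and in 8 of 8 samples, and Fos exceeded Zfp36 by 1.14 ± 0.48 in 8 of 8. Ier2 and Fos did not differ beyond their spread (0.32 ± 0.61, Ier2 higher in 5 of 8), nor did Zfp36 and Jun (0.23 ± 0.29, 6 of 8) or Nr4a1 and Fosb (0.21 ± 0.41, 6 of 8). At the lower end, Dusp1 exceeded Egr1 by 1.02 ± 0.76 and Egr1 exceeded Nr4a1 by 0.93 ± 0.46, each in 8 of 8 samples.

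Some members can share reads with overlapping genes. Jun overlaps its antisense transcript Junos (mean 1.76 TPM) and Zfp36 overlaps the antisense transcript Gm44710 (1.07 TPM), and 6.39% and 6.57% of the 31-base windows of their transcripts occur in other transcripts. The end of Junb overlaps Prdx2, a peroxiredoxin gene at 209 TPM on the opposite strand, and 6.51% of the Junb windows are shared in this way. Whether the quantification used strand is not given in the sources used here, so these levels carry that uncertainty. For Fos, Egr1, Ier2, Atf3, Nr4a1 and Dusp1, no such window was shared. The deposited name of the Junb row is a 492-base processed transcript, whereas the rows of the other members name protein-coding transcripts. Whether the Junb values read its coding mRNA was not tested.

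**Figure D1:**
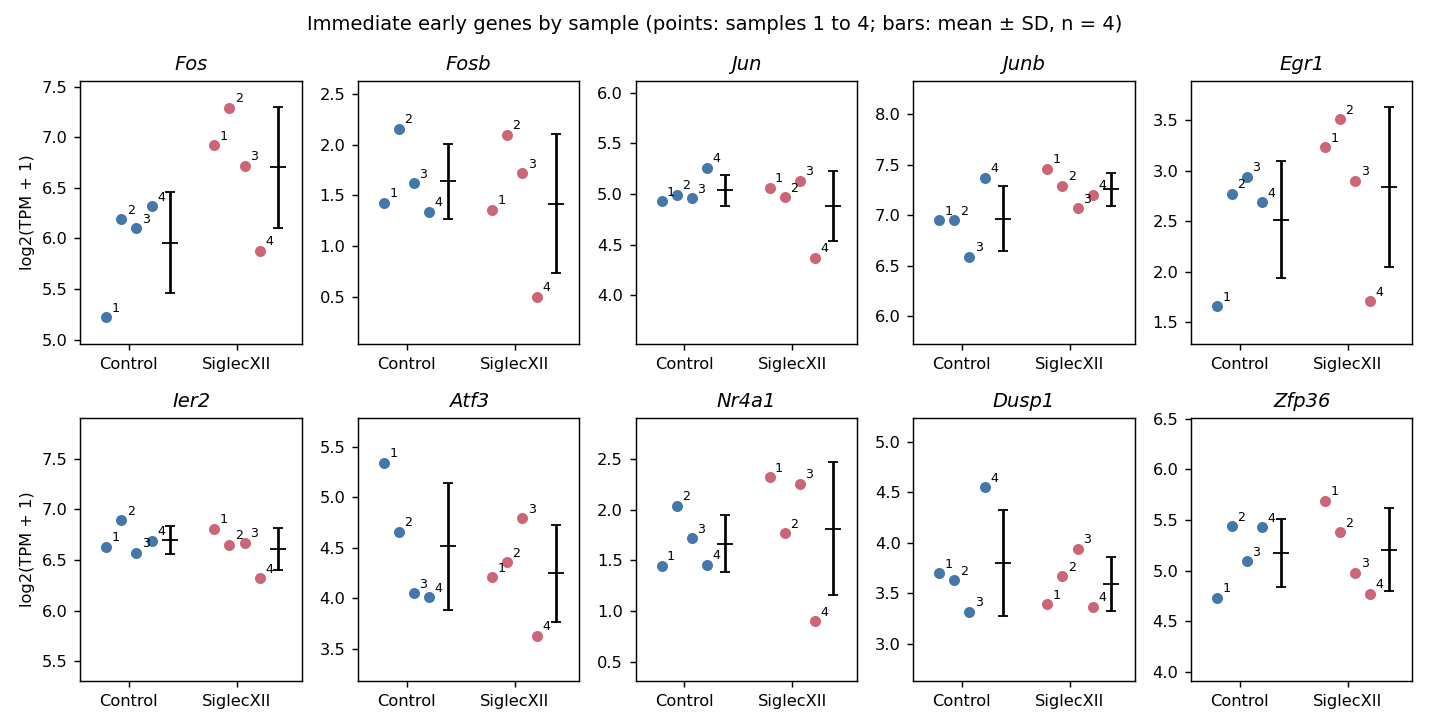
Expression of the 10 immediate early genes in each sample as log2(TPM + 1), on vertical axes that all span the same distance, with Control samples in blue, SiglecXII samples in red, the sample numbers beside the points, and the mean ± SD of 4 samples in black. In every panel the groups overlap, and SiglecXII 4 is the lowest of the 8 samples for Fosb, Jun, Ier2, Atf3 and Nr4a1.

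The first question was whether the members differed between SiglecXII and Control colons. Fos, which forms the AP-1 dimer with a Jun protein, gave the largest difference and was higher in SiglecXII samples at an unadjusted P only. No member passed the adjusted test (0 of 10, limma with Benjamini-Hochberg adjustment, two-sided), and the smallest adjusted P of a member was 0.515. Of all genes, 0.038% passed (5 of 13164). At an unadjusted P of 0.05, 1 of the 10 passed, against 8.87% of all genes. That member was higher in SiglecXII, a direction in which 1.19% of all genes passed, and none was lower, where 7.67% passed. None passed both this P and a fold-change of 2, which 0.919% of all genes did. Control and SiglecXII values were fully separate for 5.11% of all genes and for 0 of the 10 members.

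Fos was at 36.4, 71.8, 67.4 and 79.0 TPM in Control 1 to 4 and at 120.3, 156, 105 and 57.7 TPM in SiglecXII 1 to 4. SiglecXII 1, 2 and 3 were above every Control sample, but SiglecXII 4 was below 3 of them, and Control 1 was the lowest of all. On the log2(TPM + 1) scale the means were 5.96 ± 0.50 in Control and 6.70 ± 0.60 in SiglecXII (SD, n = 4 each). The difference was 0.75 with a standard error of 0.33 (limma, unadjusted P = 0.0475, Benjamini-Hochberg adjusted P = 0.515). Over the alternatives computed, it ranged from 0.50 to 1.25, above 0 in all, and limma's adjusted P from 0.0999 to 1.0. The unadjusted call was lost when any of Control 1, 2 or 3 or SiglecXII 1, 2 or 3 was left out, with differences of 0.50 to 0.82.

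Among the other AP-1 members, Junb, which pairs with Fos proteins, was at 122, 123, 95.5 and 164 TPM in Control and 175, 156, 133 and 146 TPM in SiglecXII. Its SiglecXII samples lay within a narrow band above 3 of the 4 Control samples. The difference was 0.29 with a standard error of 0.16 (limma, unadjusted P = 0.103). Jun, the best-known partner of Fos, was at 29.4, 30.8, 30.05 and 37.4 TPM in Control and at 32.4, 30.3, 33.9 and 19.7 TPM in SiglecXII. Apart from the low value in SiglecXII 4, the groups covered the same range (difference -0.15, standard error 0.17). Fosb, a close relative of Fos, was at 1.69, 3.46, 2.07 and 1.52 TPM in Control and at 1.56, 3.29, 2.3 and 0.418 TPM in SiglecXII. It was near the filter limit throughout, with SiglecXII 4 below it, and its difference was -0.21 with a standard error of 0.33. Atf3, a stress-induced factor of the ATF family, was at 39.5, 24.4, 15.6 and 15.1 TPM in Control and at 17.5, 19.6, 26.7 and 11.4 TPM in SiglecXII. Its highest value was in Control 1, where Fos was lowest (difference -0.27, standard error 0.33).

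Egr1 encodes a zinc finger factor and Nr4a1 an orphan nuclear receptor. Egr1 was at 2.15, 5.8, 6.69 and 5.46 TPM in Control and at 8.39, 10.4, 6.44 and 2.27 TPM in SiglecXII. The lowest value of each group, Control 1 and SiglecXII 4, was nearly the same, and SiglecXII 1 and 2 were the highest of all. The difference was 0.32 with a standard error of 0.41. It was 0.036 without Control 1, 0.098 without SiglecXII 2, 0.19 without SiglecXII 1 and 0.70 without SiglecXII 4. With array weights it was 0.69 (limma, unadjusted P = 0.0101, Benjamini-Hochberg adjusted P = 0.244). With smooth muscle markers as a covariate it was 1.08 (limma, unadjusted P = 0.0436, Benjamini-Hochberg adjusted P = 1). Nr4a1 was at 1.73, 3.11, 2.3 and 1.76 TPM in Control and at 4.01, 2.42, 3.79 and 0.872 TPM in SiglecXII. It was highest and lowest within the SiglecXII group, and its difference of 0.15 was below its standard error of 0.31. Ier2, a nuclear protein of the immediate early class, was the steadiest member, at 94.0 to 117 TPM in Control and 78.6 to 111 TPM in SiglecXII (difference -0.08, standard error 0.12).

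Dusp1 and Zfp36 encode products that end the response: DUSP1 is a phosphatase that switches off MAP kinases, and ZFP36 (tristetraprolin) directs mRNA with AU-rich elements to decay. Dusp1 was at 12.01, 11.4, 8.96 and 22.5 TPM in Control and at 9.51, 11.7, 14.3 and 9.32 TPM in SiglecXII. Control 4 was the highest sample, and the other 7 overlapped closely (difference -0.21, standard error 0.26). Zfp36 was at 25.6, 42.3, 33.1 and 42.1 TPM in Control and at 50.5, 40.6, 30.5 and 26.2 TPM in SiglecXII. The means were 5.17 ± 0.34 and 5.20 ± 0.41 (log2(TPM + 1), SD, n = 4 each), a difference of 0.03.

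**Figure D2:**
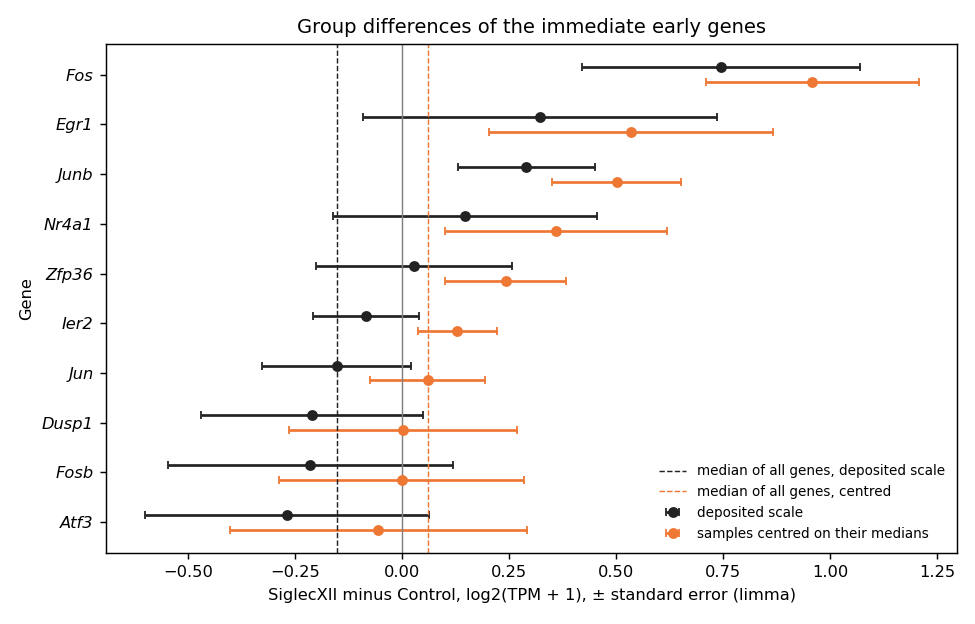
Difference of each immediate early gene between SiglecXII and Control on the log2(TPM + 1) scale with its limma standard error, on the deposited scale in black and with each sample centred on its median in orange. Dashed lines mark the median of all 13164 genes tested on each scale (-0.15 and 0.06), and on the deposited scale 5 genes lie above 0 and 5 below.

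These differences stood against a shift of the whole transcriptome. The median gene was lower in SiglecXII by 0.15 on the log2(TPM + 1) scale, with the largest downward shifts from the 8-sample mean in SiglecXII 4 (-0.30) and SiglecXII 3 (-0.16). The median of the 10 members was -0.03. With each sample centred on its median, the median of all genes became 0.06 and that of the members 0.18, and 8 of the 10 members lay above 0 in place of 5. After quantile normalization 6 did. Over all genes, 157 were higher and 1010 lower at an unadjusted P on the deposited scale, against 1137 (8.64%) higher and 285 (2.16%) lower after centring. On the centred scale Fos differed by 0.96 (limma, unadjusted P = 0.00386, Benjamini-Hochberg adjusted P = 0.459) and Junb by 0.50 (unadjusted P = 0.00907, adjusted P = 0.459). The signs of Jun, Ier2 and Dusp1 turned with this scaling (0.06, 0.13 and 0.003), so no direction was given for them. Fos, Junb and Egr1 remained above 0 on every scale and in every alternative computed, though not past the adjusted threshold in any. Egr1 was as low as 0.036 in one of them.

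The second question was how far the members varied between the 8 samples. The median SD within groups was 0.46 on the log2(TPM + 1) scale for the members and 0.24 for all genes tested, and 9 of 10 members were above that median. The spread of 5 members, Egr1 (0.69), Atf3 (0.56), Fos (0.55), Fosb (0.55) and Nr4a1 (0.50), was above the 90th percentile of all genes, 0.48. Jun (0.27) and Junb (0.25) were close to the median gene, and Ier2 (0.18) was at the 29.3 percentile. High spread was not limited to the members at low level: Fos was at the 88.4 percentile of level and at the 92.8 percentile of SD. In TPM, the highest sample exceeded the lowest 8.26-fold for Fosb, 4.83-fold for Egr1, 4.6-fold for Nr4a1, 4.28-fold for Fos and 3.46-fold for Atf3. For Ier2, Junb and Jun the same ratio was 1.49, 1.83 and 1.9. The ratios of Fosb and Nr4a1 rest on SiglecXII 4, at 0.418 and 0.872 TPM, each below 1 TPM. Leaving out 1 sample gave a median SD of the members from 0.36 to 0.48, lowest without SiglecXII 4. Centring each sample on its median left 3 members above the 90th percentile (Fosb, Egr1 and Atf3).

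**Figure D3:**
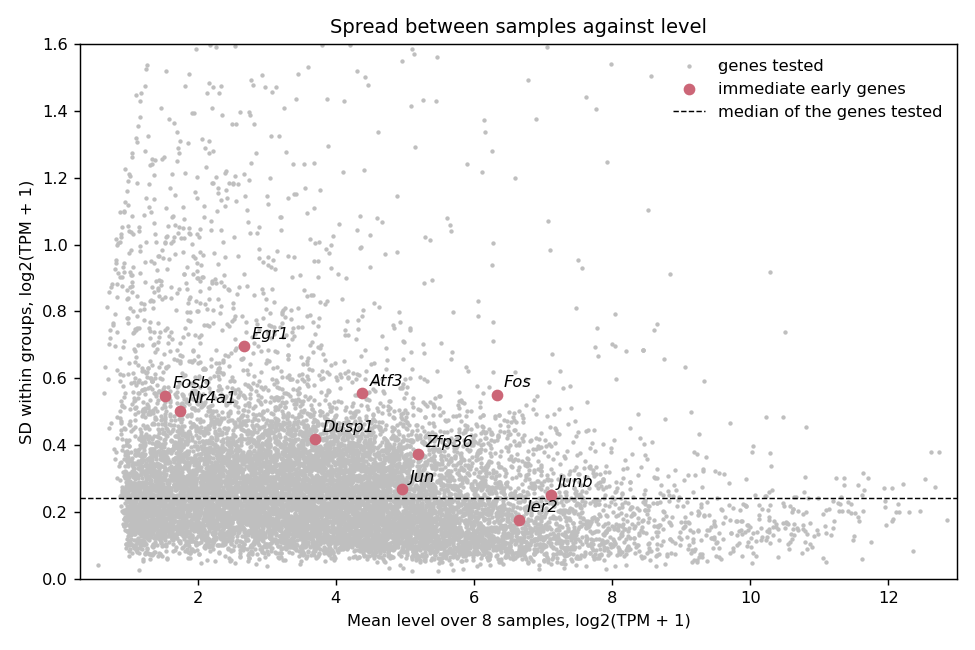
SD within groups against the mean level over the 8 samples, both as log2(TPM + 1), for the genes tested (gray) and the 10 immediate early genes (red), with 49 genes outside the axes. Egr1, Atf3, Fos, Fosb and Nr4a1 lie between 0.50 and 0.69, above the dashed median of all genes at 0.24, and Ier2 lies below it.

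The spread was not even over the samples. SiglecXII 4 was the lowest sample for 5 of the 10 members and among the 2 lowest for 9, with a mean deviation of the members of -0.56 from their 8-sample means. Junb was the exception, at 0.09 above its mean there. SiglecXII 4 also had the largest downward shift of the median gene (-0.30) and the highest share of mitochondrial transcripts, 12.85% of TPM. This share was 8.5% to 12.85% in SiglecXII and 5.74% to 7.38% in Control, without overlap, and the number of genes at 1 TPM or more was 12748 to 13175 against 13271 to 13715, also without overlap. The part of both in the group differences of the members was not tested. Its smooth muscle marker sum was the lowest at 310.5 TPM, against 579.8 to 1028 TPM in the other 7 samples. Its sums were the highest for fibroblast markers (76.9 TPM, against 16.9 to 49.2 TPM) and for mesothelium and adipocyte markers (21.8 TPM, against 0.789 to 6.39 TPM). After centring on the sample median it was still lowest for 3 members and was highest for Junb. Its mean deviation was then -0.19, close to those of Control 1 (-0.20) and Control 3 (-0.23). The part of these sample properties in the low values was not tested.

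Control 1 was the other sample that stood out, and it did so in both directions. It was the lowest sample for Fos, Egr1 and Zfp36, at -1.11, -1.02 and -0.45 from their means, and the highest for Atf3, at 0.96 from its mean. It also held the highest sums of the erythrocyte markers (357 TPM, against 8.3 to 236 TPM elsewhere) and of the heat shock genes (2785 TPM, against 1350 to 2451 TPM), and the lowest sum of the epithelial markers (6165 TPM, against 6452 to 8884 TPM). The part of these in its values was not tested. Control 4 held the highest Dusp1 and Jun. SiglecXII 1, 2 and 3 had positive mean deviations of 0.22, 0.27 and 0.19.

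**Figure D4:**
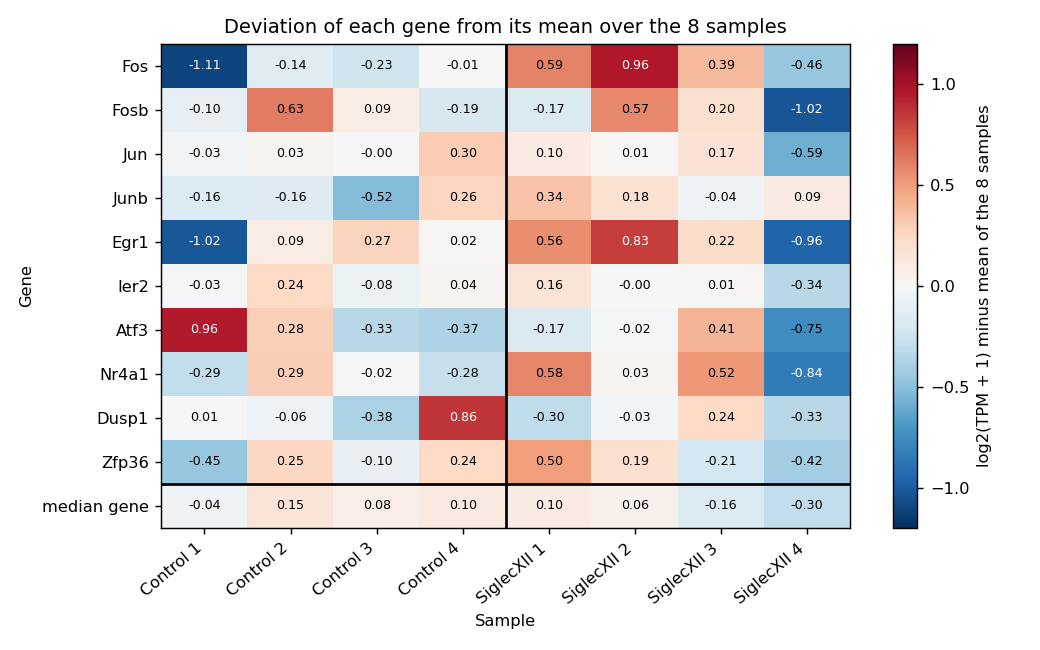
Deviation of each immediate early gene from its own mean over the 8 samples, in log2(TPM + 1), with the shift of the median gene of each sample in the bottom row. SiglecXII 4 is below the mean for every gene except Junb, and Control 1 combines low Fos and Egr1 with high Atf3.

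Whether the members rose and fell together was described by their correlations over the 8 samples, which share libraries and the shift of the median gene. Of the 45 pairs, 39 had a Pearson r above 0, with a median of 0.44 and 7 pairs above 0.7. Without SiglecXII 4 the median r was 0.19 over 7 samples, and without SiglecXII 4 and Control 1 it was 0.08 over 6 samples, with 26 of 45 pairs above 0. These 2 samples were picked from the members' own values, and leaving out such samples tends to lower r, so no conclusion was drawn from the drop. With each group centred on its own mean, the median r was 0.54 over all 8 samples, with 14 pairs above 0.7. Centring on the sample median gave a median of 0.32 over all 8 samples.

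The pair Fos and Egr1 is described because it had the highest r of the 45 pairs in these same samples. Each variant below reuses most of those samples, so no conclusion was drawn from its r staying high. Its Pearson r was 0.90 and Spearman's rho 0.83 over 8 samples, and r was 0.88 after centring, 0.97 with each group centred on its own mean, 0.94 without SiglecXII 4 and 0.86 without SiglecXII 4 and Control 1. Without the 2 samples farthest from the median of Fos (Control 1 and SiglecXII 2) it was 0.75. Both genes are textbook targets of SRF with its ERK-activated cofactors. Both also correlated with the summed epithelial markers, Egr1 at r = 0.90 and Fos at 0.69. The part of either in the relation of the pair was not tested. In the values, SiglecXII 2 and SiglecXII 1 were the highest samples for both and Control 1 the lowest for both. Ier2 and Nr4a1 (r = 0.80) fell to 0.54 without SiglecXII 4, and Jun and Ier2 from 0.76 to 0.13. Jun and Dusp1 went the other way, from 0.62 to 0.82, with r = 0.39 when the 2 samples farthest from the median of Jun (Control 4 and SiglecXII 4) were left out. Atf3 had the most negative correlations of the members, 4 of its 9, with Fos (-0.26), Junb (-0.26), Zfp36 (-0.22) and Egr1 (-0.14). Spearman's rho for these was 0.02, -0.38, -0.19 and -0.02. Without SiglecXII 4 and Control 1, r was 0.17, -0.09, -0.32 and -0.05, so the signs with Fos and Egr1 were not firm. Its median r was 0.13, and those of Dusp1 (0.13) and Junb (0.12) were about the same.

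Some members' levels on the deposited scale correlated with marker sums of the samples. Several also correlated with the shift of the median gene of each sample. That r was 0.79 for Ier2, 0.78 for Zfp36, 0.68 for Jun and 0.60 for Egr1, but 0.27 for Fos and -0.02 for Junb. The part of this shift in the correlations that follow was not tested. Egr1 correlated with the summed epithelial markers at r = 0.90, Zfp36 at 0.73 and Fos at 0.69, whereas Junb (-0.09), Atf3 (-0.21) and Dusp1 (-0.27) did not follow them. Jun correlated with the smooth muscle markers at 0.76, Zfp36 at 0.19, Fos at -0.12 and Junb at -0.43, and Ier2 with the mitochondrial share at -0.76 (8 samples each, as a description). The epithelial sum ranged from 6165 to 8884 TPM in Control and from 6452 to 8633 TPM in SiglecXII, so the tissue was rich in epithelium in every sample. The smooth muscle sum was 645 to 1028 TPM in Control and 310.5 to 665 TPM in SiglecXII. In the group difference 8 of 8 smooth muscle markers were below 0, as most genes tested were. Their median was -0.69, and -0.47 after centring, against -0.15 and 0.06 for all genes. At limma's unadjusted P, 4 of 8 were lower, and 4 of 8 after centring. Of all genes, 7.67% and 2.16% were lower at that P. Endothelial markers summed to 5.31 to 7.09 TPM and 3.37 to 4.81 TPM, with Cdh5, Kdr and Tie1 under 1 TPM in every sample. Leukocyte markers summed to 4.12 to 12.8 TPM and 3.29 to 3.83 TPM, with Ptprc, Cd3e, Ms4a1 and Adgre1 under 1 TPM in every sample. In whole tissue, fewer cells of a type and less RNA per cell cannot be told apart. The part of the tissue makeup in the members' values was not tested beyond the fit with the smooth muscle markers as a covariate, in which Fos differed by 1.25, Egr1 by 1.08, Nr4a1 by 0.74 and Junb by 0.26. None passed limma's adjusted threshold there.

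The genes whose pattern was most like the mean deviation of the 10 members were ranked by Pearson's r over the 8 samples among 13154 other genes. The highest were Dnpep (0.96), an aspartyl aminopeptidase, and Sumo3 (0.96), a small ubiquitin-like modifier, followed by Tsg101 (0.95), a subunit of the endosomal sorting complex. Fes, 1810043G02Rik, Fam204a, Flot1, Gm12715, Mpnd and Noxo1 completed the first 10, with r from 0.93 to 0.95. Without SiglecXII 4 their r lay between 0.81 and 0.96. No other immediate early gene of the lists below was among them. The lowest were Serping1 (-0.92) and C1s1 (-0.91), both of the complement system, Dcn (-0.89), a matrix proteoglycan, Rcn3 (-0.89) and Rarres2 (-0.89). Without SiglecXII 4 these were -0.78, -0.72, -0.70, -0.80 and -0.65.

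The rest of the pathway was read from 8 lists of 111 genes, of which 96 were tested. None passed the adjusted test (0 of 96, limma with Benjamini-Hochberg adjustment), 0 were higher and 15 lower at an unadjusted P of 0.05, where 1.19% and 7.67% of all genes were. After centring each sample on its median, 6 were higher and 6 lower, where 8.64% and 2.16% of all genes were.

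Among the relatives of the members, the other AP-1 and ATF genes had a median difference of -0.11 (8 tested, 0 at an unadjusted P). Jdp2, a repressor of AP-1, differed by -1.32 with a standard error of 0.60, and by -0.80 without Control 4, and Fosl2 by -0.17 with a standard error of 0.19. Of the other zinc finger and nuclear receptor genes and Myc, 1 of 5 tested was lower. Egr2, Egr4, Nr4a2 and Nr4a3, close relatives of Egr1 and Nr4a1, stayed below 1 TPM in every sample. The gene past the limit was Myc, the growth-promoting transcription factor and itself an immediate early gene. On the log2(TPM + 1) scale Myc was at 5.02, 4.88, 4.25 and 4.67 in Control and at 4.06, 4.10, 3.49 and 3.25 in SiglecXII. The groups did not overlap for Myc, which was also so for 5.11% of all genes. The difference was -0.98 with a standard error of 0.24 (limma, unadjusted P = 0.00242, Benjamini-Hochberg adjusted P = 0.515), and -0.77 after centring.

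Of 23 further immediate early genes tested, 6 were lower at an unadjusted P, where 7.67% of all genes were. A difference below 0 was found in 18, with a median of -0.26. The median of all genes was -0.15, so most genes tested lay below 0 too. Ier5 (-0.62), a relative of Ier2, the polo-like kinases Plk3 (-0.52) and Plk2 (-0.60), and Arc (-0.90), known from synapses, were the named ones (limma, adjusted P = 0.515 each). Arc was at -0.54 without Control 1. After centring, 0 of the 23 were lower and 3 were higher, with Ier5 at -0.41, Plk3 at -0.30, Plk2 at -0.39 and Arc at -0.69. Without Control 1, Control 4 or SiglecXII 4, 1 gene of this list was lower, and without SiglecXII 3 the count was 2. The list of MAP kinase phosphatases and ERK feedback genes held dual specificity phosphatases, Sproutys, Spreds and Errfi1. It had 13 of 13 differences below 0 and a median of -0.20. Dusp5 (-0.43), a nuclear ERK phosphatase, was the one at an unadjusted P. The median after centring was 0.01.

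Upstream of the members, the ERK, JNK and p38 cascade had a median of -0.15 (18 tested), the same to 2 decimals as that of all genes, and 1 at an unadjusted P, Mapk14 (-0.50), which encodes p38 alpha. The SRF, TCF and CREB factors had a median of -0.24 (12 tested), with Elk3 (-0.91), a ternary complex factor, as the one at an unadjusted P. The proteins that bind AU-rich elements, Zfp36l1 and Khsrp included, had a median of -0.31 with 0 of 7 at an unadjusted P. Zfp36l1, a paralog of Zfp36, differed by -0.50 with a standard error of 0.28, and Khsrp by -0.47 with a standard error of 0.28. Without SiglecXII 4 they were at -0.33 and -0.21.

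Heat shock genes, which like the members respond to dissection, had the median farthest from 0 of these 8 lists. All 10 differences were below 0, where most genes tested lay too. Their median was -0.52, and -0.31 after centring, against -0.15 and 0.06 for all genes. At limma's unadjusted P, 5 of 10 were lower, 3 of 10 after centring and 0 of 10 with the smooth muscle covariate. The same was true of 7.67%, 2.16% and 1.57% of all genes. Without SiglecXII 3 the count was 2, and without Control 1, Control 4 or SiglecXII 4 it was 3. Hsph1 (-0.60), Hsp90aa1 (-0.58) and Hsp90ab1 (-0.46), a cochaperone and both cytosolic HSP90 genes, did not overlap between the groups. The same held for 5.11% of all genes. Without SiglecXII 4 Hsp90ab1 was at -0.30. Hspa1b, the stress-inducible HSP70 gene, was at 5.89, 4.10, 3.11 and 4.77 in Control and at 3.25, 3.85, 2.47 and 2.48 in SiglecXII (log2(TPM + 1)). It was highest in Control 1, the sample with the highest Atf3 and the lowest Fos. The heat shock sum correlated with the members at r between -0.18 (Fos) and 0.62 (Jun), with -0.09 for Junb and 0.53 for Atf3.

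**Figure D5:**
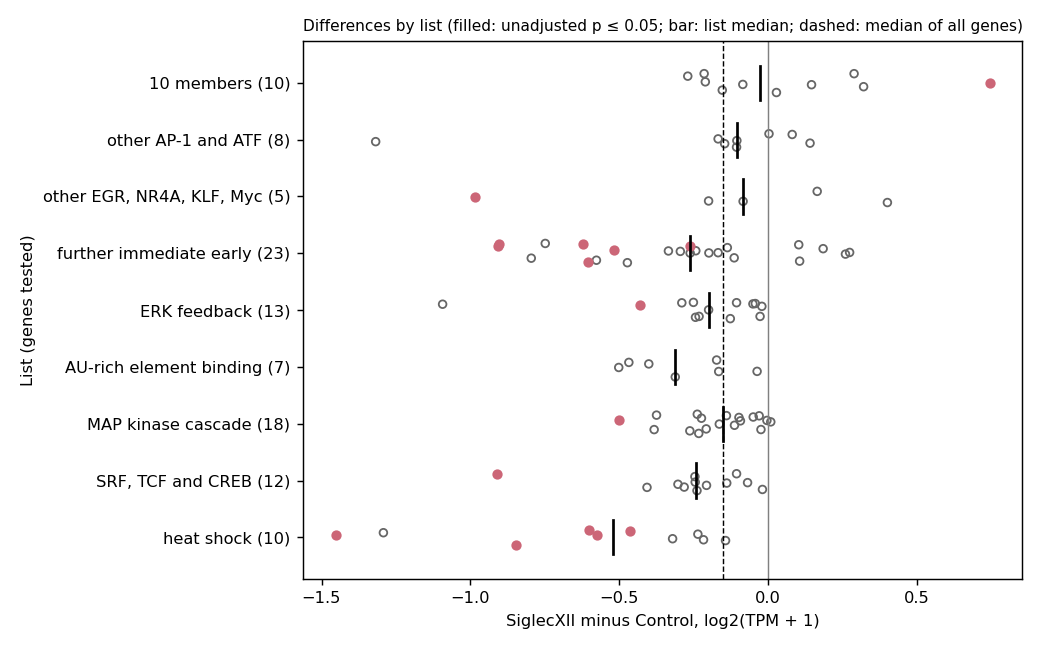
Difference between SiglecXII and Control on the log2(TPM + 1) scale for the 10 immediate early genes and for each gene tested in the 8 related lists, with list medians as bars, the median of all genes as a dashed line at -0.15, and filled points for genes at limma's unadjusted P of 0.05. Fos is the only filled point above 0, and the heat shock genes have the lowest median at -0.52.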

How the data were processed

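Total RNA from the colon was sequenced as paired reads. The authors quantified transcripts with kallisto, per the submitters' processing notes 0.45.0 with GRCm38, whereas the methods name another version and a human reference, and deposited log2(TPM + 1) values, 1 per gene and sample, with no adjustment between samples. TPM carries no depth, so no counting interval was computed and the 4 samples per group limit the precision. The labels name a stranded total RNA kit and the methods a stranded mRNA kit. The table holds no row for SIGLEC12, so the group labels could not be checked on the transgene.

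Groups and sample numbers came from the labels. Genes that reached 1 TPM in 4 or more samples entered a linear model in limma 3.58.1 (eBayes with a trend, run under R 4.3.3), two-sided, with Benjamini-Hochberg adjustment. The script was tested on simulated data. All differences carry the pseudocount of 1 of the deposited scale, which understates changes of low genes. Counts and DESeq2 were not used here. The genes named are the 10 members; of each list, up to 4 genes at an unadjusted P of 0.05 or otherwise the 2 with the largest difference; and the 10 most and 5 least correlated genes. Members and lists were chosen with earlier results of these data known. The alternatives were a TPM filter of 5 or none, a pseudocount of 0.1, median centring, quantile normalization, array weights, unmoderated variance, the sample number as a block, smooth muscle markers as a covariate, and leaving out samples. Figures were drawn with matplotlib 3.10.9 in Python 3.11.15.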

Additional observations from a re-analysis of the deposited data

Results flagged for a closer look

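Within the 10 members, 20 groups of 4 samples (each member in each group) were examined for a single sample far from the other 3 by Dixon's 95% criterion. None was past it, where chance would give about 1 in 20.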

How the results depend on the processing

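No member and no gene of the 8 lists passed limma's adjusted threshold under any of the 18 alternatives. All genes past it numbered 5 in the reported fit and 2 to 18 over the alternatives, and those at an unadjusted P numbered 1167 and 320 to 2365. The filter at a TPM of 5 left out Fosb and Nr4a1. Same-numbered samples gave no sign of a pairing, with correlations of -0.165, -0.204, 0.103 and -0.002. Differently numbered samples gave -0.166 to 0.26. These values cannot decide whether mice were paired. A replicate block gave 0 members at an unadjusted P, with 4 genes past the adjusted threshold. The labels state a nominal range of reads per sample and no read count for any one sample, and TPM carries no read counts, so the counting error of low members such as Fosb and Nr4a1 was not computed.

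Members at an unadjusted P numbered 1 in the reported fit, 0 with no filter, without moderated variance and with the replicate block, and 2 with median centring, quantile normalization, array weights or the muscle covariate. Leaving out 1 sample gave 0 to 2. Of all 13164 genes, 1167 were at an unadjusted P in the reported fit, 1422 with centring and 1112 with quantile normalization. The number was 1851 with array weights, 320 with the muscle covariate, 998 without moderation and 945 with the block. It was 362 without SiglecXII 3 and 4 and 483 to 2365 without 1 sample. With no filter, where more genes entered, it was 2043. The 5 heat shock genes that were lower became 3 with centring or array weights, 2 without moderation or without SiglecXII 3 and 4, 0 with the muscle covariate, and 2 to 7 without 1 sample. The 6 further immediate early genes that were lower became 0 with centring or without SiglecXII 3 and 4, 1 with quantile normalization, without moderation or with the muscle covariate, 2 with array weights, and 1 to 8 without 1 sample. The causes of these changes were not tested.

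The sign turned for several small differences. With centring Jun was at 0.06, Ier2 at 0.13, Dusp1 at 0.003 and Fosl2 at 0.045, and with quantile normalization Ier2 was at 0.016. With array weights Fosb was at 0.28, Atf3 at 0.034 and Fosl2 at 0.069. With the muscle covariate Fosb was at 0.26, Jun at 0.19, Ier2 at 0.063, Atf3 at 0.056, Fosl2 at 0.046 and Khsrp at 0.057. Without SiglecXII 3 and 4, Fosb was at 0.093, Ier2 at 0.034, Fosl2 at 0.12 and Khsrp at 0.018. Leaving out 1 sample moved Atf3 between -0.45 and 0.005, Zfp36 between -0.13 and 0.17, Dusp1 between -0.37 and 0.041, Nr4a1 between -0.023 and 0.45, Fosb between -0.44 and 0.092, Jun between -0.23 and 0.018 and Ier2 between -0.15 and 0.014. The median difference of the members lay between -0.14 and 0.13 without 1 sample. Fos stayed above 0 throughout, at 0.50 to 1.02 without 1 sample, and passed the unadjusted threshold in 9 of 18 alternatives.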
